A study of Homo sapiens with 6 samples.

Results

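The control transcriptome of A673, an established Ewing sarcoma cell line, was taken as every gene with at least 1 FPKM in both libraries of the esiGFP group. FPKM is the number of sequenced fragments divided by transcript length and by the mapped fragments of the library, so levels of different genes are given per length. The rule was met by 11139 of the 25268 gene symbols listed (44.1%), and these genes are called members. Among symbols that GENCODE v29 types as protein-coding, 10598 of 18987 were members (55.8%), the share against which the counts of coding gene lists are to be read. The esiGFP cells were transfected with esiRNA against GFP (a mix of small interfering RNAs cut by an enzyme from a long double strand), labelled as a non-targeting control, and RNA was taken 72 hours later. The study set these cells beside A673 cells given esiFLI1 or esiUSP9X, with 2 libraries in each of the 3 groups, and only the 2 esiGFP libraries are described here. Stranded libraries were made from 2 µg of RNA after ribosomal depletion and read as single ends of 75 nucleotides. The cells are a cultured line and carried a transfected RNA, so the levels are those of control-transfected A673 cells, not of untreated cells or of tumours. Both libraries belong to 1 group, so there is no test, and each level is given as the value in library 1 and then in library 2.

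Ewing sarcoma is a tumour of bone and soft tissue driven by a fusion of a FET family gene, most often EWSR1, to an ETS family transcription factor, most often FLI1. The fusion protein EWS-FLI1 binds ETS sites and GGAA repeats, opens enhancers at some genes and silences others, and leaves cells with mixed neural and mesenchymal features. A673 is widely used as a model of the EWSR1-FLI1 fusion, and is known for an activating BRAF mutation and loss of CDKN2A.

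The libraries agreed in rank but differed with base composition. Pearson's r of log2(FPKM + 1) over the 11139 members was 0.952 and Spearman's rho was 0.942, both across genes, which are not independent replicates. The values of 92.6% of members lay within 2-fold on that scale, and the median log2 ratio of library 2 to library 1 was -0.03. The log2 ratio of the libraries (no pseudocount) followed the GC content of the longest GENCODE v29 transcript, with r of -0.82 over the 10963 members that had a transcript (98.4%). Among the 2741 members lowest in GC (30.2% to 41.5%), the median ratio of library 2 to library 1 was 1.38. Among the 2741 highest in GC (55.7% to 72.8%) it was 0.554. GC-rich genes thus tended to read lower in library 2, and AT-rich genes higher; the part of this difference in each result was not tested. Which library is nearer to the cells cannot be told apart with 2 libraries, and both values are given throughout. One gene is called above or below another only where both libraries gave that order, except where the mean of the libraries is named.

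**Figure D1:**
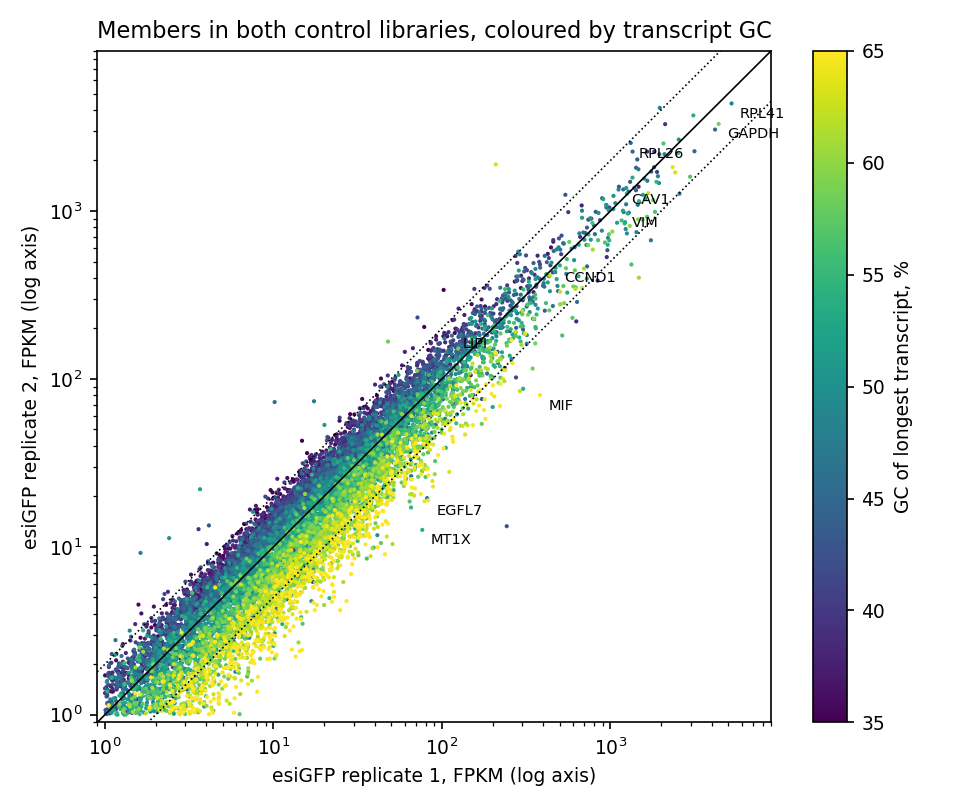
FPKM of members in esiGFP replicate 1 (x axis) and replicate 2 (y axis), both on log axes; each point is a gene, coloured by the GC percentage of its longest transcript, MIR6723 lies outside the axes, the solid line marks equal values and the dotted lines a 2-fold difference. GC-rich genes tended to lie below the line and AT-rich genes above it. Examples are MIF (GC of 66.7%) at 382 and 80.2 FPKM and LIPI (GC of 35.7%) at 119 and 188 FPKM.

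The 10 members of at least 10 FPKM on average with the largest excess in library 1 were RPL21P28 (242 and 13.3 FPKM), MT1X (76.4 and 12.6 FPKM), NME3 (24.9 and 4.20 FPKM), MFSD10 (27.2 and 4.75 FPKM), MZT2B (45.9 and 9.03 FPKM), CYBA (50.9 and 10.4 FPKM), MIF (382 and 80.2 FPKM), GALK1 (22.3 and 4.70 FPKM), TMUB1 (22.9 and 5.04 FPKM) and TP53I13 (19.99 and 4.50 FPKM). RPL21P28 is a processed copy of RPL21, and its reads cannot be separated from those of RPL21 with certainty. In the other direction stood mostly short RNAs, namely MIR25 (209 and 1893 FPKM), SNORA26 (10.2 and 72.8 FPKM), SNORA45A (3.67 and 22.03 FPKM), SNORD9 (17.4 and 73.6 FPKM), MIR3661 (47.8 and 167 FPKM), SNORA40 (102 and 339 FPKM), SNORD12B (71.6 and 232 FPKM) and SNORD67 (20.1 and 53.2 FPKM), along with the coding genes CCDC73 (14.8 and 42.8 FPKM) and UBE2V2 (78.5 and 204 FPKM).

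The median member had 13.6 FPKM on average over the libraries, and the quartiles were 5.62 and 33.6 FPKM. A mean under 10 FPKM was found for 4525 members (40.6%), 5745 (51.6%) lay from 10 to under 100 FPKM, 794 from 100 to under 1000, and 75 at 1000 or more. Just inside the rule were TMED7-TICAM2 (1.0002 and 1.43 FPKM), LY6G5C (1.19 and 1.001 FPKM), MMAA (1.001 and 1.35 FPKM), RMDN2 (1.002 and 1.72 FPKM) and LINC00539 (1.30 and 1.002 FPKM). Just outside were FIRRE (0.9997 and 1.03 FPKM), ZNF117 (0.9996 and 2.04 FPKM), UST (0.999 and 1.05 FPKM), ZNF177 (0.998 and 1.09 FPKM) and MXD1 (0.998 and 1.26 FPKM). A further 739 symbols reached 1 FPKM in 1 library only.

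The top of the table was held by a symbol for a short RNA. MIR6723 was listed at 276047 and 370049 FPKM, 33.9% and 41.8% of the FPKM sum of each library. The mitochondrial genome's own genes have no entry under a symbol starting with MT- (0 symbols). The MIR6723 transcript of GENCODE v29 is 89 bases long, and it was set against each mitochondrial transcript of that release. It matched the opposite strand of MT-CO1, a subunit of cytochrome c oxidase, at 88 of 89 bases, whereas the closest other mitochondrial transcript had 49 mismatches. The sequences are shown, written 5′ to 3′, because this entry alone holds the shares given above. The capital letter marks the mismatch, A11G, with positions counted from 1 at the 5′ end of MIR6723.
MIR6723: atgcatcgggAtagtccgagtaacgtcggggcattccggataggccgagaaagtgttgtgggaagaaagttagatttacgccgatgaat
MT-CO1 opposite strand: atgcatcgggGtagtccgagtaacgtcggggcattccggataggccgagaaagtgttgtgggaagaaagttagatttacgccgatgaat
Which of these loci the reads came from was not tested. Other short RNAs were near the top too. SNORD76, a small nucleolar RNA, had 6106 and 7327 FPKM, and SNORD100 was listed at 0 in library 1 and 5047 FPKM in library 2. Because FPKM divides by length, few fragments can give a short RNA a high value. The number of fragments behind such entries is unknown here, so their levels may not compare with those of messenger RNAs.

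For 2 microRNA symbols that differed by over 3-fold between the libraries, the mature sequences of RefSeq (GRCh38.p14) are printed with the seed, bases 2 to 8, in capitals, and no 2 of them share a seed. A ribosomal RNA-depleted total RNA library is not made to measure mature microRNAs, so the FPKM is that of the listed symbol and not of the mature form.
hsa-miR-25-3p: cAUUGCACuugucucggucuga
hsa-miR-25-5p: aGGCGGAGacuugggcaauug
hsa-miR-3661: uGACCUGGgacucggacagcug
MIR25 ranked 389 in library 1 and 21 in library 2, and MIR3661 ranked 2008 and 489.

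Messenger RNAs for protein synthesis, glycolysis and the cytoskeleton filled most of the remaining top ranks. Of the 25 symbols with the highest mean, 17 encode proteins of the cytosolic ribosome. RPL41 had 5233 and 4371 FPKM, RPS27 4176 and 3055 FPKM, RPL21 1964 and 4111 FPKM, RPL37A 3153 and 2268 FPKM and RPL7 2111 and 3289 FPKM. Further ones were RPS18 (2544 and 2663 FPKM), RPS2 (2970.4 and 1600.0 FPKM), RPS12 (2093 and 2181 FPKM), RPL35 (2338 and 1824 FPKM), RPS15A (1951 and 2178 FPKM) and RPL8 (2422 and 1697 FPKM). They also included RPS3A (1817 and 2252 FPKM), RPL9 (1654 and 2256 FPKM), RPL26 (1318 and 2543 FPKM), RPLP1 (2568 and 1268 FPKM) and RPS24 (1815 and 1822 FPKM). These genes have many processed copies in the genome, and how the authors assigned reads shared with them is not given in the sources used here. Of the cytosolic ribosomal protein genes, 78 of 79 were members with a median of 1073 FPKM. GAPDH, a glycolytic enzyme, stood at 4386 and 3300.1 FPKM, TMSB10, which binds actin monomers, at 3105 and 3708 FPKM, and ACTB, the cytoplasmic beta-actin, at 2515 and 2208 FPKM. HSP90AA1, a chaperone, had 1353 and 2258 FPKM and B2M, the light chain of class I antigen-presenting molecules, 1889.9 and 1708 FPKM. A list of genes used by every cell had 97 of 100 members with a median of 358 FPKM. Its other entries were EEF1A1 and SLC25A6, listed at 0 in both libraries, and H3F3A at 0.0183 and 0.0261 FPKM, so an entry at 0 in this table is no evidence that the gene is silent.

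**Figure D2:**
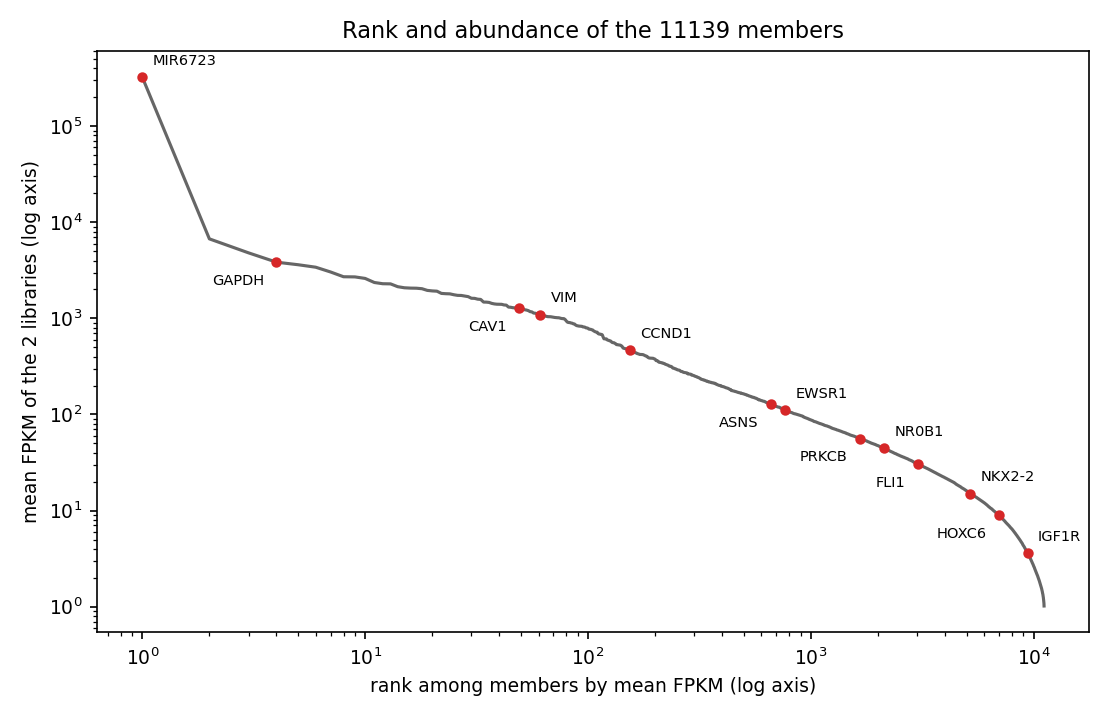
Mean FPKM of the 2 libraries (log axis) against rank among the 11139 members (log axis), with named genes as red points. MIR6723 stands far above the next symbol, and structural and cell cycle genes such as VIM, CAV1 and CCND1 lie in the upper ranks. HOXC6 (mean of 8.92 FPKM) and IGF1R (3.58 FPKM) lie below the median member (13.6 FPKM), IGF1R also below the lower quartile (5.62 FPKM).

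Transcripts of the fusion partners were present at unequal levels. EWSR1, an RNA-binding FET protein, had 105 and 117 FPKM, and its ranks among all symbols were 829 and 720. FLI1, the ETS partner, had 24.1 and 36.4 FPKM, and its ranks were 3799 and 2525. EWSR1 was 4.36-fold above FLI1 in library 1 and 3.21-fold in library 2. The table has a value per symbol, so reads of the fusion transcript and of the intact EWSR1 and FLI1 alleles cannot be told apart. TAF15, another FET gene, had 42.5 and 56.1 FPKM, whereas ERG, the alternative ETS partner in some Ewing tumours, had 0.00717 and 0.0112 FPKM. Among ETS family genes, 16 of 27 were members with a median of 12.9 FPKM. ELK3, a repressor regulated by RAS, had 35.7 and 31.8 FPKM, ETV5, a target of MAP kinase signalling, 24.1 and 28.1 FPKM, and ERF, an ETS repressor, 31.7 and 15.02 FPKM. GABPA, an ETS activator of housekeeping promoters, had 16.8 and 24.99 FPKM, against 0.108 and 0.137 FPKM for ETS1 and 0.0657 and 0.0447 FPKM for SPI1, the ETS factor of myeloid cells.

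Of the 10 genes set as Ewing sarcoma markers for a check of the cell line, EWSR1 and FLI1 included, 9 were members. LIPI, a lipase gene known for its expression in Ewing sarcoma, had 119 and 188 FPKM, STEAP1, a membrane metalloreductase, 93.8 and 104 FPKM, and NR0B1, an orphan nuclear receptor, 61.4 and 27.6 FPKM. PPP1R1A, an inhibitor of protein phosphatase, had 22.998 and 18.5 FPKM, NKX2-2, a homeobox repressor, 16.2 and 13.9 FPKM, and BCL11B, a zinc finger factor, 8.99 and 9.55 FPKM. PAX7, a paired-box factor, was close to the threshold at 1.04 and 1.38 FPKM. CD99, the diagnostic surface glycoprotein of this tumour, was listed at 0 in both libraries. CD99 lies in the pseudoautosomal region shared by the X and Y chromosomes, and 24 of the 25 symbols with a copy there in GENCODE v29 were listed at 0 in both libraries, including all 18 coding ones. Over all coding symbols, 16.4% were listed at 0 in both. The entry for CD99 thus cannot be read as absence of its RNA.

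Neural crest and neural progenitor transcription factors were mixed, with 38 of 58 members and a median of 9.27 FPKM. ID2, which blocks helix-loop-helix factors, had 201 and 195 FPKM, and its relative ID3 75.8 and 44.3 FPKM. OTX2, a homeobox factor of the forebrain and midbrain, had 58.6 and 71.8 FPKM, HES1, a Notch-regulated repressor, 58.7 and 54.4 FPKM, and ZIC2, a zinc finger factor of the neural plate, 47.2 and 33.2 FPKM. SOX2, a factor of neural stem cells, had 39.3 and 39.3 FPKM, while its partner in pluripotent cells, POU5F1, had 0.129 and 0.180 FPKM. SOX10, the defining factor of migrating neural crest and its glia, was at 0.00562 and 0 FPKM. The proneural factors NEUROG1 and NEUROD1 and the oligodendrocyte factors OLIG1 and OLIG2 were listed at 0 in both. Progenitor factors were themselves divided. ZIC1 had 0.193 and 0.159 FPKM and LHX2 0.0756 and 0.0192 FPKM, and SOX3, SOX21 and FEZF2 were listed at 0 in both.

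Genes of neurons and neuroendocrine cells gave 26 of 44 members. STMN1, a regulator of microtubules that is also high in dividing cells, had 661 and 701 FPKM, UCHL1, a neuronal ubiquitin hydrolase, 602 and 356 FPKM, and TUBB3, the neuronal beta-tubulin, 224 and 131 FPKM. NPY, a neuropeptide known in Ewing sarcoma, had 172 and 53.96 FPKM, and its receptors NPY1R and NPY5R had 94.9 and 109 FPKM and 16.5 and 20.1 FPKM. NPY1R was 5.76-fold and 5.42-fold above NPY5R. GRP, which encodes gastrin-releasing peptide, had 143 and 66.5 FPKM, PCSK2, a convertase of prohormones, 40.8 and 49.003 FPKM, and CPE, which trims the products of the convertases, 21.4 and 21.7 FPKM. The granule proteins CHGA (0.453 and 0.426 FPKM) and CHGB (0.167 and 0.194 FPKM) fell under the rule, as did NCAM1 (0.978 and 0.874 FPKM). DCX, ELAVL2, ELAVL4 and INSM1, genes of immature neurons and neuroendocrine cells, were listed at 0 in both. Other neuronal genes were members, among them ENO2, the neuronal enolase (79.1 and 41.1 FPKM), STMN3, a relative of STMN1 (63.7 and 28.1 FPKM), SYT1, a calcium sensor of synaptic vesicles (19.9 and 32.1 FPKM), NEFM, a neurofilament subunit (13.99 and 22.4 FPKM), and GAP43, a growth cone protein (8.88 and 11.2 FPKM).

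Mesenchymal genes gave 30 of 48 members. VIM, the intermediate filament of mesenchymal cells, had 1198 and 985 FPKM, at ranks 64 and 70. COL1A2, a chain of type I collagen, had 275 and 102 FPKM, but COL1A1, its usual partner chain, had 29.6 and 8.99 FPKM, a ratio of 9.30 and 11.3. SPARC, a collagen-binding protein, had 113 and 106 FPKM, CDH11, a mesenchymal cadherin, 68.2 and 94.1 FPKM, and COL5A2, a chain of type V collagen, 55.4 and 44.7 FPKM. Among the factors of the epithelial to mesenchymal transition, ZEB2 had 20.7 and 28.5 FPKM and TWIST1 18.1 and 11.8 FPKM, whereas ZEB1 had 1.02 and 1.46 FPKM and SNAI2 0.753 and 1.39 FPKM. PRRX1, a limb mesenchyme factor, had 0.128 and 0.106 FPKM and its paralog PRRX2 22.3 and 5.98 FPKM. FN1, TBX2 and RUNX1 were listed at 0 in both, and PDGFRA, a receptor of mesenchymal progenitors, had 0.0233 and 0.0156 FPKM beside 18.4 and 11.6 FPKM for PDGFRB.

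Of the pluripotency and germline genes, 2 of 16 were members, LIPI and LIN28B, the latter a blocker of let-7 maturation at 16.01 and 28.5 FPKM. PRAME, a cancer-testis antigen, had 1.20 and 0.611 FPKM, and MAGEA3, MAGEA4, MAGEA6 and CTAG1B were listed at 0 in both.

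HOX genes, which encode position along the body axis, were expressed by cluster. HOXD held 65.6% and 68.3% of the summed HOX FPKM, with 7 of 9 genes as members. HOXD11 had 66.3 and 44.2 FPKM, HOXD8 46.6 and 54.9 FPKM, HOXD13 33.9 and 32.6 FPKM and HOXD9 35.5 and 19.8 FPKM. HOXD10 had 27.6 and 27.4 FPKM, yet HOXD12, which lies between HOXD11 and HOXD13, had 0.212 and 0.0654 FPKM. HOXB gave 8 of 10 members, led by HOXB7 (26.99 and 27.7 FPKM) and HOXB2 (18.1 and 10.1 FPKM). HOXC gave 7 of 9, led by HOXC6 (10.6 and 7.27 FPKM). In HOXA 0 of 11 genes were members, and no value exceeded 0.0419 FPKM. Among posterior genes, HOXA9, HOXA10 and HOXA13 were listed at 0, beside values above 10 FPKM for HOXD9, HOXD10 and HOXD13.

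**Figure D3:**
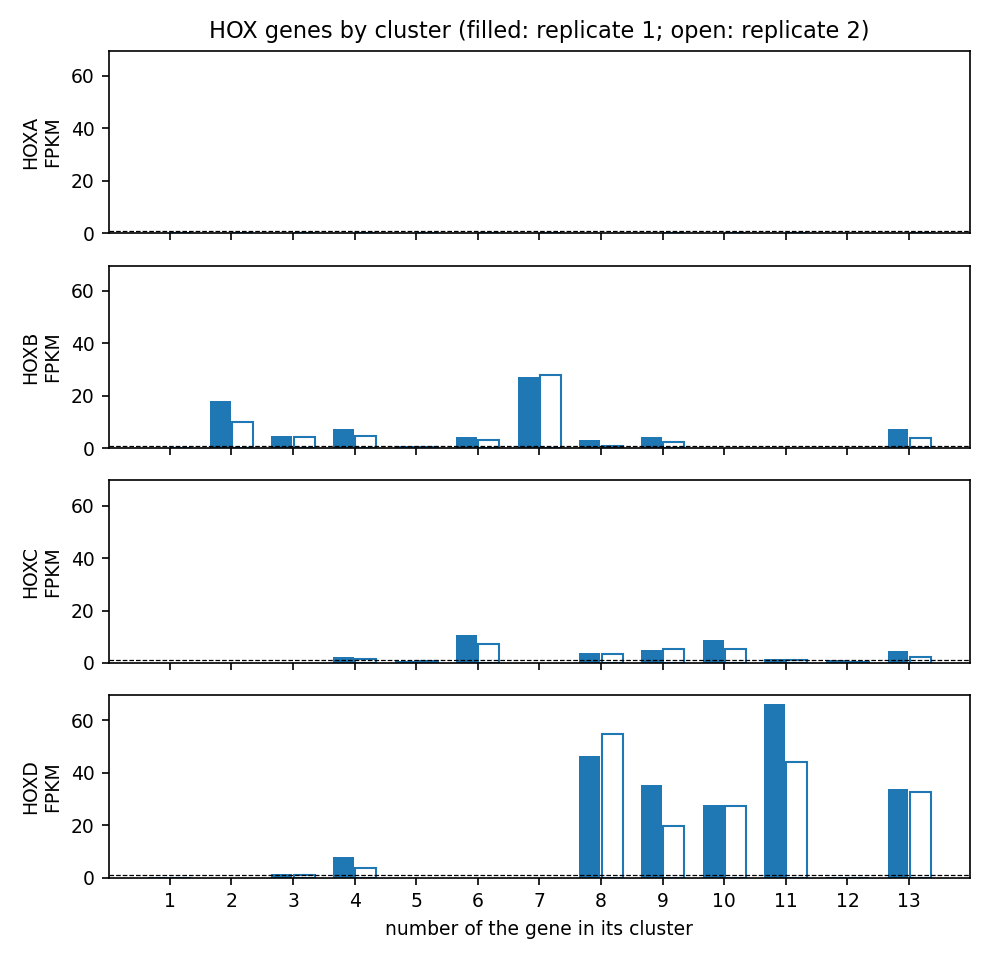
FPKM of the HOX genes (linear y axis) by gene number (x axis) in each of the 4 clusters, with replicate 1 as filled and replicate 2 as open bars and 1 FPKM as a dashed line. The tall bars are in HOXD from 8 to 13, except 12, and the HOXA panel is empty at this scale.

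Markers of other cell types were mostly under the rule. Across 10 such lists, 17 of 112 different genes were members (15.2%). Melanocyte markers gave 0 of 7 members and liver markers 0 of 8, with ALB and TYR listed at 0 in both. In bulk RNA of a cell line, a low level in every A673 cell and a higher level in few of them cannot be told apart. Glial markers gave 1 of 10, fat cell markers 1 of 8, LPL at 2.04 and 1.88 FPKM, and skeletal muscle markers 1 of 12, TNNT1 at 7.16 and 3.99 FPKM. The muscle-defining factors MYOD1 and MYOG were listed at 0 in both. Blood cell markers gave 2 of 18, the lysosomal protein CD68 at 3.77 and 2.73 FPKM and the receptor KIT at 1.63 and 1.86 FPKM, with the pan-leukocyte gene PTPRC at 0.00727 and 0 FPKM. Cartilage and bone markers gave 3 of 12, namely ALPL at 6.49 and 3.94 FPKM, MATN3 at 1.89 and 2.20 FPKM and SPP1 at 1.08 and 1.20 FPKM. Smooth muscle markers gave 3 of 8, namely ACTA2 at 70.3 and 69.5 FPKM, TAGLN at 25.03 and 19.7 FPKM and RGS5 at 1.69 and 1.89 FPKM, while MYH11, the smooth muscle myosin, had 0.234 and 0.228 FPKM.

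Some genes usually named as epithelial or endothelial markers were nonetheless abundant. KRT18, a simple epithelial keratin, had 191 and 144 FPKM, whereas its usual filament partner KRT8 had 7.63 and 4.12 FPKM, a ratio of 25.06 and 34.9. TP63 (1.64 and 2.28 FPKM) and ESRP2 (2.11 and 1.74 FPKM) were the other members among 4 of 18 epithelial genes. CDH1, which encodes E-cadherin, was listed at 0 in both, and EPCAM had 0.343 and 0.152 FPKM. EGFL7, an endothelial secreted protein, had 82.7 and 18.9 FPKM and EMCN, an endothelial sialomucin, 18.4 and 22.5 FPKM, as the members among 2 of 13 endothelial genes. PECAM1 (0.0496 and 0.0305 FPKM), CDH5 (0.0495 and 0.0236 FPKM) and VWF (0.00487 and 0 FPKM), which define that cell type, were at or near 0.

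**Figure D4:**
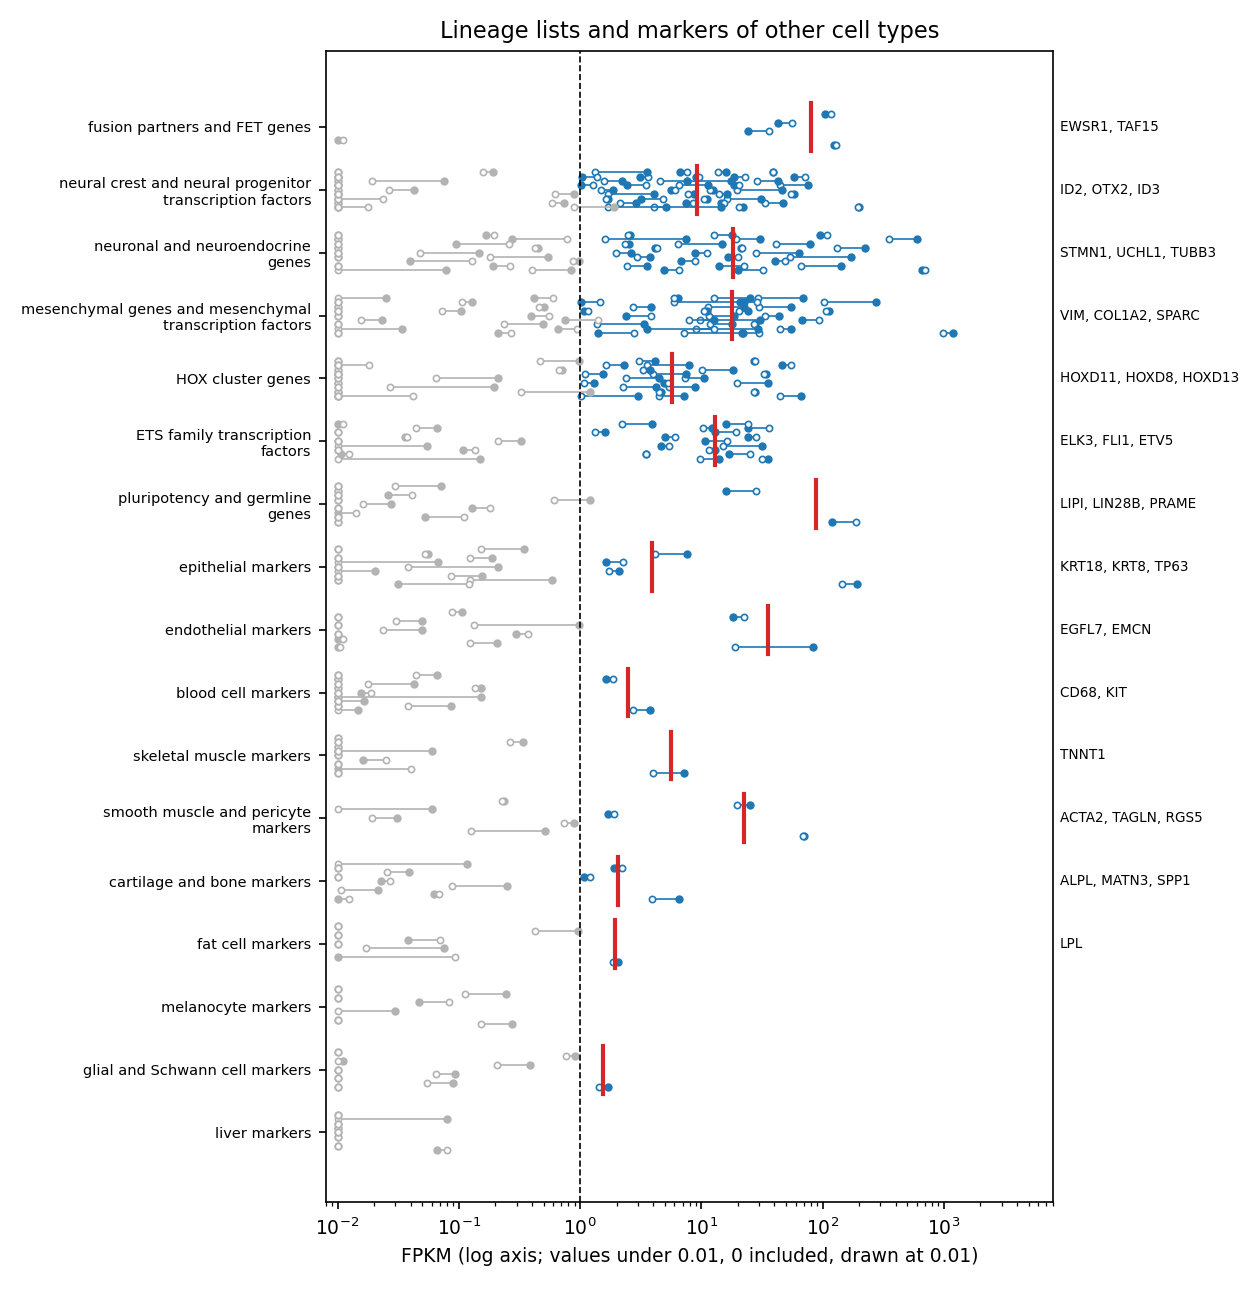
FPKM (log axis) of each gene in the lineage lists and in the lists of markers of other cell types, with replicate 1 as a filled and replicate 2 as an open point joined by a line, members in blue, other genes in grey, the median of members as a red bar, 1 FPKM as a dashed line and, at the right, those of the 3 highest genes that the text names. Members made up 136 of 234 different genes of the lineage lists (58.1%, beside 55.8% of all coding symbols), with the pluripotency and germline list mostly left of the line, and 17 of 112 of the marker lists, where KRT18, EGFL7 and ACTA2 lie far to the right.

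Genes reported in the literature as activated by EWS-FLI1 were nearly all members, 53 of 55, with a median of 40.6 FPKM. Over all protein-coding members the median was 14.1 FPKM. This list was drawn up from what is known of the fusion, in part from A673 cells, so its level here is no independent evidence on the fusion. CAV1, the scaffold of caveolae, had 1191 and 1344 FPKM, at ranks 65 and 41. CCND1, cyclin D1, had 472 and 459 FPKM, at ranks 161 and 156. VRK1 (93.9 and 146 FPKM) and AURKA (66.9 and 86.2 FPKM) are mitotic kinases, and EZH2 (48.1 and 60.8 FPKM) is the Polycomb methyltransferase. DKK2, a secreted modulator of Wnt receptors, had 79.9 and 99.8 FPKM, PRKCB, a protein kinase C, 48.6 and 63.7 FPKM, and GPR64, an adhesion receptor, 100.4 and 93.4 FPKM. RBM11, a splicing factor, had 108 and 179 FPKM, and IL1RAP, a subunit of interleukin-1 receptors, 58.3 and 94.2 FPKM. Lower levels were found for IGF1, a growth factor (5.12 and 6.18 FPKM), GLI1, a Hedgehog effector (3.96 and 3.30 FPKM), and CCK, a neuropeptide (3.57 and 2.44 FPKM). The genes under the rule were TERT, the telomerase subunit (2.60 and 0.733 FPKM), and PRKCE (0.169 and 0.150 FPKM).

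Genes reported as repressed by the fusion gave 25 of 35 members, with a median of 14.3 FPKM in these cells. The highest by the mean of the libraries were COL1A2 (275 and 102 FPKM), TGFBI, a matrix protein induced by TGF-beta (168 and 111 FPKM), VCL, vinculin of focal adhesions (96.6 and 79.05 FPKM), and TNC, tenascin C (76.4 and 81.5 FPKM). ZYX, zyxin, had 78.2 and 41.1 FPKM, and TGFBR2, the type II TGF-beta receptor, 14.3 and 14.2 FPKM. FOXO1, a forkhead factor, had 1.59 and 1.66 FPKM, LOX, an enzyme that crosslinks collagen, 3.02 and 4.27 FPKM, and CDKN1A, the inhibitor p21, 13.8 and 9.21 FPKM. Near 0 were IGFBP3, an IGF-binding protein (0.0141 and 0.0387 FPKM), CD44, the hyaluronan receptor (0.223 and 0.174 FPKM), THBS1 (0.275 and 0.223 FPKM) and IL6 (0.0215 and 0 FPKM).

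Surface proteins known in Ewing sarcoma or used as therapy targets gave 35 of 47 members. BSG, a chaperone of lactate transporters, had 621 and 343 FPKM, CD63 and CD81, tetraspanins, 364 and 242 FPKM and 201 and 91.6 FPKM, and SLC3A2, the shared heavy chain of amino acid exchangers, 149 and 92.4 FPKM. Of targets under study for antibodies, STEAP1 and IL1RAP are given above, CD276 had 36.8 and 15.2 FPKM, TNFRSF10B, a TRAIL receptor, 55.6 and 46.03 FPKM, ERBB2 7.80 and 3.89 FPKM and IGF1R 4.23 and 2.93 FPKM. LINGO1, a neuronal membrane protein, had 64.7 and 20.5 FPKM, and EPHA2, an ephrin receptor, 45.1 and 28.6 FPKM. B4GALNT1, which makes the ganglioside GD2, had 14.6 and 6.46 FPKM, but ST8SIA1, the synthase of its precursor GD3, had 0.0104 and 0.0276 FPKM. EGFR (0.0726 and 0.0181 FPKM) and L1CAM (0.542 and 0.182 FPKM) fell under the rule. The 5 genes of that list with a mean of at least 100 FPKM were BSG, CD63, CD81, SLC3A2 and TFRC, the transferrin receptor (94.97 and 133 FPKM), all broadly expressed membrane proteins.

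Class I antigen presentation was uneven across its steps. B2M is given above, and the loading chaperones CALR and PDIA3 had 501 and 474 FPKM and 231 and 264 FPKM. Of the heavy chains, HLA-C had 78.5 and 29.001 FPKM and HLA-B 6.22 and 1.77 FPKM, so HLA-B was the lower of this pair in both libraries. HLA genes are polymorphic, and reads from an allele unlike the reference can be lost, so their levels are uncertain. The peptide transporter genes TAP1 and TAP2 had 4.74 and 1.996 FPKM and 7.97 and 5.13 FPKM. NLRC5, the activator of class I genes, had 0.733 and 0.363 FPKM, CIITA, that of class II genes, 0.00503 and 0 FPKM, and CD274, which encodes PD-L1, 0.262 and 0.246 FPKM. In all, 20 of 32 genes of that list were members.

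The receptor tyrosine kinase list, which also counts IGF2R, a receptor that clears IGF2 and is not a kinase, gave 30 of 51 members. Their median was 6.11 FPKM. The highest by the mean of the libraries were EPHA2, given above, PTK7, a pseudokinase of planar polarity (44.7 and 27.4 FPKM), DDR2, a collagen receptor (38.4 and 33.6 FPKM), and RYK, a Wnt co-receptor (30.6 and 33.98 FPKM). FGFR1, a fibroblast growth factor receptor, had 27.9 and 16.01 FPKM, RET, the GDNF family receptor, 17.3 and 14.03 FPKM, and MET, the hepatocyte growth factor receptor, 2.90 and 3.15 FPKM. The neurotrophin receptor genes NTRK2 and NTRK3 were listed at 0 in both. Integrin genes gave 10 of 25 members. ITGB1, the shared beta subunit, had 244 and 361 FPKM, ITGB5 80.9 and 51.04 FPKM, ITGA5, the alpha subunit of the fibronectin receptor, 74.4 and 48.3 FPKM, and ITGAV 13.7 and 20.5 FPKM. The laminin-binding alpha subunits ITGA3 (0.682 and 0.267 FPKM) and ITGA6 (3.09 and 3.53 FPKM) were low. Of the G protein-coupled receptor genes, 27 of 52 were members. Behind NPY1R stood F2R, a thrombin receptor (72.4 and 71.5 FPKM), the Wnt receptor FZD1 (65.97 and 45.9 FPKM) and S1PR3, a receptor of sphingosine 1-phosphate (41.02 and 40.7 FPKM). CXCR4, the CXCL12 receptor, had 6.43 and 3.86 FPKM, and ACKR3, an atypical receptor of the same chemokine, 0.00649 and 0 FPKM.

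Of the lineage, surface, fusion target, metabolic and signalling themes, the metabolic genes had the largest share of members, with 279 of 294 different genes as members (94.9%) and a median of 56.0 FPKM. Glucose transport and glycolysis gave 27 of 27 members. GAPDH and ENO1, enolase (1559.7 and 1248 FPKM), were the highest in both libraries. PKM, pyruvate kinase, had 1266 and 966 FPKM and LDHB, a lactate dehydrogenase subunit, 946 and 1049.6 FPKM. LDHB was 1.30-fold and 1.32-fold above LDHA (726 and 796 FPKM), so these subunits differed by little and in the same direction in both libraries. HK1, a hexokinase, had 71.6 and 56.01 FPKM, 4.55-fold and 3.81-fold above HK2 (15.7 and 14.7 FPKM). The glucose transporter genes SLC2A1 (19.01 and 14.4 FPKM) and SLC2A3 (6.44 and 5.26 FPKM) were members at lower levels than HK1. For lactate export, SLC16A1 had 50.5 and 61.01 FPKM and SLC16A3 5.92 and 1.64 FPKM. Their ratio was 8.54 in library 1 and 37.1 in library 2, with a GC of 43.5% for the SLC16A1 transcript and 62.7% for that of SLC16A3. The pentose phosphate pathway gave 7 of 8 members, among them PGD, a dehydrogenase of its oxidative branch (304 and 257 FPKM), TKT, transketolase (165 and 109 FPKM), and TALDO1, transaldolase (149.9 and 117 FPKM). TKTL1 was listed at 0 in both.

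All 29 genes of pyruvate entry and the citric acid cycle and all 49 nuclear genes of the respiratory complexes and ATP synthase were members. MDH1, cytosolic malate dehydrogenase, had 186 and 182 FPKM, IDH1, cytosolic isocitrate dehydrogenase, 145 and 184 FPKM, SDHB, a succinate dehydrogenase subunit, 163 and 154 FPKM, and CS, citrate synthase, 130.1 and 130.1 FPKM. PC, pyruvate carboxylase, was the lowest of that list at 6.72 and 4.82 FPKM. The respiratory list had a median of 176 FPKM, and 34 of its genes had a mean of at least 100 FPKM. COX7C, of complex IV, had 951 and 532 FPKM, ATP5B, of ATP synthase, 764 and 675 FPKM, UQCRH, of complex III, 701 and 674 FPKM, and NDUFS5, of complex I, 492 and 607 FPKM. The subunits encoded in the mitochondrial genome have no symbol starting with MT- here and were not analysed.

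Serine and folate enzymes gave 22 of 25 members with a median of 64.3 FPKM. The serine synthesis genes PHGDH (307 and 187 FPKM), PSAT1 (209 and 223 FPKM) and PSPH (48.98 and 39.3 FPKM), which act in that order, were all members. AHCY, which clears S-adenosylhomocysteine, had 268 and 216 FPKM. SHMT2, the mitochondrial serine hydroxymethyltransferase (169 and 148 FPKM), was 6.10-fold and 7.06-fold above the cytosolic SHMT1 (27.7 and 20.9 FPKM). MTHFD2, the mitochondrial dehydrogenase of proliferating cells, had 166 and 188 FPKM, while GLDC, which cleaves glycine, had 0.180 and 0.0675 FPKM. Asparagine, glutamine, proline and urea cycle enzymes gave 19 of 22 members. ASNS, asparagine synthetase, had 115 and 140.3 FPKM, GLUD1, glutamate dehydrogenase, 68.998 and 68.7 FPKM, GOT2, mitochondrial aspartate aminotransferase, 75.7 and 61.95 FPKM, and BCAT1, a branched-chain aminotransferase, 44.6 and 68.3 FPKM. GLUL, glutamine synthetase, had 36.4 and 37.5 FPKM. Amino acid transporters gave 21 of 25 members, among them SLC38A2 (144 and 186 FPKM) and SLC1A5 (171 and 112 FPKM), which import glutamine and other neutral amino acids. SLC7A5, which forms a leucine exchanger with SLC3A2, had 138 and 71.9 FPKM. SLC7A11, the cystine transporter, had 10.5 and 17.5 FPKM.

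Nucleotide synthesis gave 28 of 30 members. RRM2, the small subunit of ribonucleotide reductase, had 167 and 183 FPKM, IMPDH2, of guanine nucleotide synthesis, 149.8 and 147 FPKM, and the purine enzymes ATIC and PAICS 144 and 143 FPKM and 121 and 154 FPKM. DHODH, of pyrimidine synthesis, was lowest at 6.75 and 5.51 FPKM. All 34 genes of cholesterol and fatty acid synthesis were members. SCD and FADS2, fatty acid desaturases, had 455 and 272 FPKM and 358 and 163 FPKM, FDPS, of the mevalonate pathway, 242 and 163 FPKM, and IDI1, its isomerase, 136 and 176 FPKM. FASN, fatty acid synthase, had 181 and 57.8 FPKM, a spread of over 3-fold between the libraries. All 18 genes of fatty acid oxidation were members, with ETFA, an electron carrier, at 127 and 141 FPKM, ECHS1 at 142 and 98.1 FPKM, ACADVL at 132 and 97.3 FPKM and HADHA at 121 and 92.7 FPKM, the last 3 being enzymes of the spiral. CPT1A, the carnitine transferase that controls entry, had 7.75 and 6.14 FPKM. NAD, polyamine and glutathione genes gave 28 of 30 members, among them PRDX1, a peroxiredoxin (945 and 1086 FPKM), GSTP1, a glutathione transferase (680.5 and 349 FPKM), GPX4, which reduces lipid peroxides (503 and 329.8 FPKM), and SOD1, a superoxide dismutase (328 and 379 FPKM). ODC1, the rate-limiting enzyme of polyamine synthesis, had 270.2 and 336 FPKM and NAMPT, of the NAD salvage pathway, 22.96 and 32.1 FPKM. NNMT, which methylates nicotinamide, had 0.0127 and 0 FPKM.

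Promoter windows were examined because members can be ranked by level. The 250 bases upstream of the RefSeq start site (GRCh38.p14, 1 window per gene) were available for 8794 of 10598 coding members (83.0%). For coding symbols under the rule the share was 75.8%, under the 80% needed, so that comparison is void and only members are compared with each other. Shares of all 27305 windows, which hold members and other symbols together, are given for scale only and are not compared with those of members. The ETS motif CCGGAAGT, on either strand, was in 6.07% of windows of members under 10 FPKM, 9.12% from 10 to under 100 FPKM, and 11.4% at 100 FPKM or more. Of all windows, 3.64% held it. The CCAAT box (CCAAT) was in 34.3%, 36.1% and 41.9% in the same order and 33.0% of all windows. The TATA box (TATAAA) was in 5.24%, 4.03% and 8.71%, lowest in the middle class, and in 11.1% of all. GC boxes (GGGCGG) did not rise steadily with level either, at 68.1%, 69.7% and 69.1%, and were in 42.3% of all. Paired GGAA (GGAAGGAA) was in 2.81%, 2.97% and 2.86%, also without a steady rise, and in 2.99% of all. Such short motifs can occur by chance, and a match is not a bound site. The median GC of the windows was 65.6%, 65.2% and 63.6% from the lowest to the highest level class, and its part in these shares was not tested. Shown are the windows of 4 genes of the lineage, surface, fusion target, metabolic and signalling lists, those of highest mean level among genes whose ETS motif had at least 30 bases of the window on each side. Genes with the motif nearer to the window's end and genes of the other lists, ribosomal ones included, are not shown, though some had higher levels. The sequences are on the strand of the gene, with the motif in capitals, so that ACTTCCGG is the motif on the opposite strand.
UQCRH chr1:46303621-46303688: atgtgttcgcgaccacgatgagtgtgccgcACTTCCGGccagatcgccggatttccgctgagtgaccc
ATP5H chr17:75047034-75047101: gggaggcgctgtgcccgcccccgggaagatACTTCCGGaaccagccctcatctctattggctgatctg
JAK1 chr1:65067771-65067838: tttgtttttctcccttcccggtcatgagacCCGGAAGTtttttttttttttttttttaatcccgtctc
IDI1 chr10:1056773-1056840: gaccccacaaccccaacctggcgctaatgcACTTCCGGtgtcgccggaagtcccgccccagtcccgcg
UQCRH lies on the plus strand and the other 3 on the minus strand, and the IDI1 stretch holds a further copy of the motif in lower case. ATP5H, of ATP synthase, had 229.7 and 203 FPKM, and the other levels are given in this section. The motif was in 7 of the 39 respiratory genes with a window, although only 79.6% of that list had one. No window of a gene on the list of those activated by EWS-FLI1 held it (0 of 40, from 75.5% of the members), and both shares are under 80%, so these counts are not compared. The ASNS window held TGATGNAA, the letters of the amino acid response element, present in 1.23% of coding members' windows and 3.19% of all windows. The motif was not particular to ASNS. Windows of other list genes held it too, among them GRP, ITGB5, BCAT1 and GOT1, and only that of ASNS is shown.
ASNS chr7:97872439-97872506: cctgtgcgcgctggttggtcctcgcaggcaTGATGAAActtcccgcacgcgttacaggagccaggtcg

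In IGF and insulin signalling 15 of 22 genes were members. IGFBP2, a binding protein that restrains IGF, had 595 and 231 FPKM, IGF2BP3, an RNA-binding protein, 34.6 and 46.01 FPKM, IRS2, an adaptor, 31.98 and 27.2 FPKM, and IGF2BP2 27.4 and 29.6 FPKM. The signalling receptor IGF1R ranked 9233 and 9528 among all symbols, and IGF2R, which clears IGF2, was 6.12-fold and 7.48-fold above it. Of the ligands, IGF1 is given above and IGF2 had 0.0278 and 0.0544 FPKM. Genes of PI3K, AKT and mTOR gave 24 of 26 members, among them EIF4EBP1, a translation repressor (209 and 143 FPKM), RHEB, the activator of mTORC1 (84.8 and 82.5 FPKM), EIF4E, the cap-binding protein (58.1 and 94.1 FPKM), and AKT1 (91.7 and 57.2 FPKM). AKT1 exceeded AKT2 by 4.41-fold and 4.50-fold.

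RAS and MAPK genes gave 38 of 39 members. SHC1, an adaptor, had 117 and 88.7 FPKM, PTPN11, the phosphatase SHP2, 66.99 and 83.8 FPKM, NRAS 64.7 and 81.9 FPKM, and MYC, a transcription factor downstream, 79.05 and 65.1 FPKM. BRAF, the kinase mutated in this line, had 4.37 and 5.51 FPKM, under ARAF (21.4 and 17.02 FPKM) in both libraries. Of the feedback genes, DUSP6, an ERK phosphatase, had 72.5 and 58.8 FPKM, SPRED2 20.8 and 24.6 FPKM and SPRY4 6.45 and 5.36 FPKM, whereas the immediate early factors FOS (1.96 and 1.12 FPKM) and EGR1 (18.7 and 12.9 FPKM) were lower than DUSP6.

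In Wnt signalling 25 of 54 genes were members. WNT5A (2.72 and 3.996 FPKM) was the only Wnt ligand of that list among them, while WNT1, WNT3A and WNT7A were listed at 0 in both. DKK2 was the highest of the list in both libraries, WLS, which carries Wnt proteins to the surface, had 56.4 and 59.2 FPKM and CTNNB1, beta-catenin, 54.5 and 58.99 FPKM. The receptors LRP6 (21.2 and 24.3 FPKM) and LGR5 (10.9 and 6.64 FPKM) were members, the pathway target AXIN2 had 2.18 and 2.21 FPKM and the nuclear factor LEF1 0.0691 and 0.0607 FPKM. Hedgehog and Notch genes gave 15 of 28 members, among them HES1, NUMB, a Notch inhibitor (24.5 and 21.9 FPKM), RBPJ, the nuclear effector of Notch (18.99 and 26.5 FPKM), and SMO, the Hedgehog transducer (24.6 and 12.2 FPKM). SHH and DHH were listed at 0 in both.

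TGF-beta and BMP genes gave 29 of 40 members. ID2 was the highest of the list in both libraries. BMPR1A, a BMP receptor, had 43.7 and 60.9 FPKM and TGFB1, the ligand, 47.1 and 22.2 FPKM. TGFBR1, the signalling receptor subunit, had 1.58 and 1.45 FPKM against 14.3 and 14.2 FPKM for TGFBR2, and BMP2 and BMP4 had 0 and 0 FPKM and 0.00772 and 0 FPKM. Hippo genes gave 20 of 23 members, among them MOB1A, a kinase cofactor (60.997 and 65.2 FPKM), the coactivator YAP1 (47.7 and 68.2 FPKM), TEAD2, its DNA-binding partner (52.97 and 46.9 FPKM), and the YAP1 paralog WWTR1 (27.2 and 31.2 FPKM). Their targets CTGF and CYR61 had 28.5 and 27.2 FPKM and 16.5 and 13.9 FPKM, and ANKRD1 0.892 and 0.595 FPKM.

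Among JAK-STAT, interferon and NF-kappa-B genes 29 of 42 were members. JAK1, a cytokine receptor kinase, had 178 and 225 FPKM, 53.05-fold and 45.9-fold above JAK2 (3.35 and 4.91 FPKM). IFITM3, an antiviral membrane protein, had 122 and 71.5 FPKM and IFNGR2, an interferon receptor subunit, 43.97 and 32.8 FPKM, while the interferon-induced MX1 had 0.129 and 0.0601 FPKM and IRF1 1.62 and 1.06 FPKM. In protein kinase C, phospholipase and calcium signalling 23 of 32 were members, with CALM2 (458 and 657 FPKM) and CALM3 (146 and 79.3 FPKM), which encode calmodulin, among the highest by the mean of the libraries, beside PRKAR1A, a regulatory subunit of protein kinase A (78.3 and 90.9 FPKM). PRKCB exceeded PRKCA (1.76 and 1.67 FPKM) by 27.6-fold and 38.1-fold.

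The G1 cell cycle list gave 28 of 33 members. CCND1 was 20.05-fold and 42.1-fold above CCND3, and CCND2 had 0.00131 and 0.0101 FPKM. CDK4, a partner kinase of cyclin D, had 103 and 83.9 FPKM, 40.2-fold and 29.4-fold above CDK6 (2.57 and 2.86 FPKM). RB1, the substrate of these kinases, had 25.6 and 41.5 FPKM and E2F1 49.6 and 28.6 FPKM. CDKN2A and CDKN2B, which encode inhibitors of those kinases and neighbour each other, were listed at 0 in both, whereas MTAP, the next gene on the chromosome, had 10.9 and 14.8 FPKM. MDM2, a ubiquitin ligase, had 17.5 and 22.7 FPKM, and the pro-apoptotic genes BAX and PMAIP1 had 78.7 and 54.6 FPKM and 30.1 and 49.9 FPKM. Apoptosis regulators gave 27 of 33 members, with MCL1, a survival protein (70.9 and 96.2 FPKM), BIRC5, survivin (84.6 and 54.5 FPKM), and BAX among the highest by the mean of the libraries. MCL1 was above BCL2L1 (26.2 and 17.2 FPKM), and BCL2L1 above BCL2 (6.46 and 6.80 FPKM), in both libraries.

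All 48 genes of the DNA damage response and drug target list were members, with a median of 52.9 FPKM. TUBB, a tubulin bound by vinca drugs, had 1186 and 1004 FPKM, XRCC6 and XRCC5, the Ku subunits, 447 and 493 FPKM and 242 and 304 FPKM, and PSMB5, the proteasome subunit bound by bortezomib, 425 and 375 FPKM. PARP1, the target of PARP inhibitors, had 145 and 147 FPKM, TOP1, the target of irinotecan, 76.4 and 111 FPKM, TOP2A, that of etoposide, 65.3 and 97.5 FPKM, and SLFN11, known for sensitising cells to such drugs, 38.4 and 39.8 FPKM. MGMT, which repairs alkylated guanine, had 27.5 and 14.3 FPKM. Chromatin complexes gave 56 of 58 members, among them the cohesin subunits RAD21 (118 and 158 FPKM) and SMC3 (86.02 and 163 FPKM), the deacetylase HDAC1 (114 and 117 FPKM) and the BAF subunit ACTL6A (107 and 119 FPKM). STAG2, the cohesin subunit often lost in Ewing sarcoma, had 53.6 and 85.5 FPKM, above STAG1 (14.3 and 28.4 FPKM) in both. SMARCA4, a BAF ATPase, was 5.17-fold and 3.23-fold above SMARCA2, and EZH2 was 18.9-fold and 28.8-fold above EZH1.

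**Figure D5:**
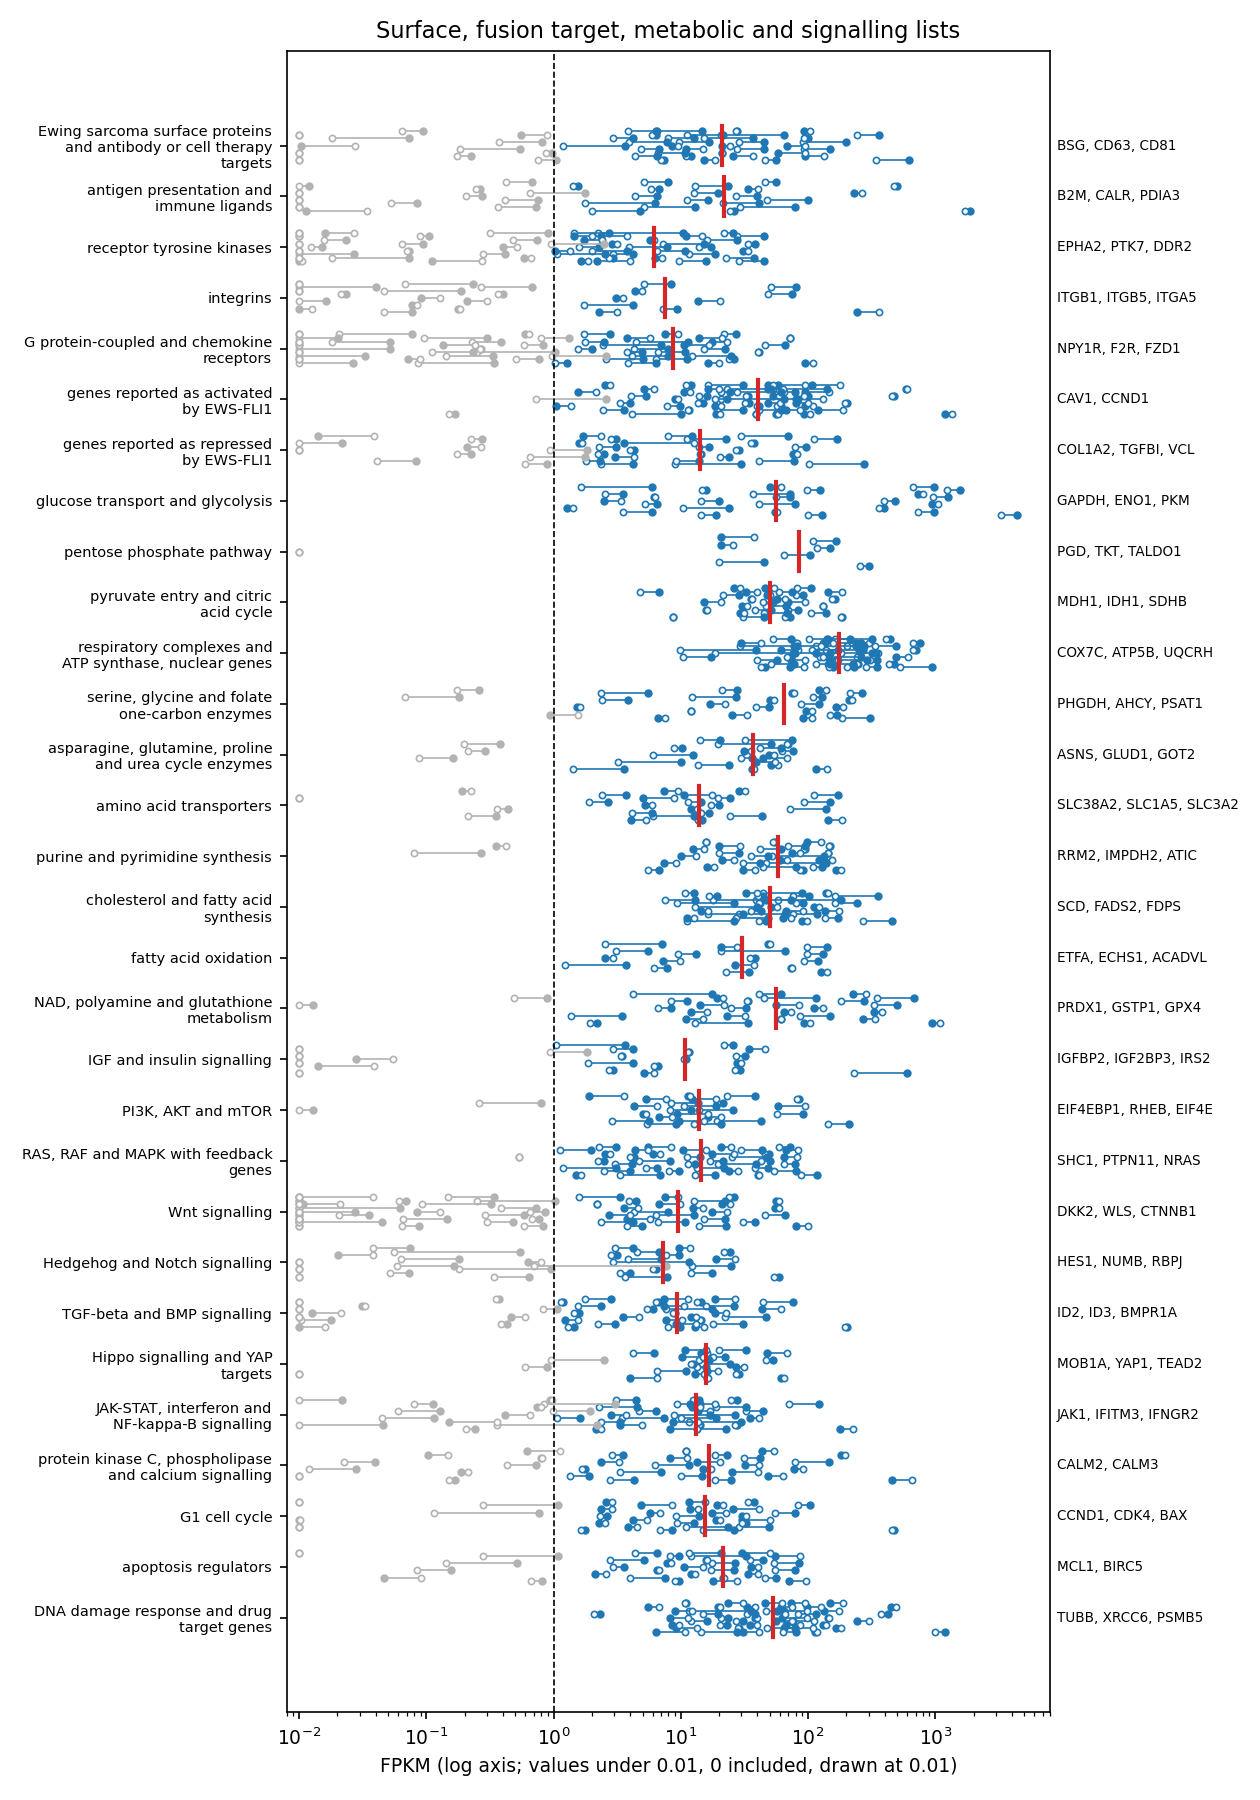
FPKM (log axis) of each gene in the surface, fusion target, metabolic and signalling lists, with replicate 1 as a filled and replicate 2 as an open point joined by a line, members in blue, other genes in grey, the median of members as a red bar, 1 FPKM as a dashed line and, at the right, those of the 3 highest genes that the text names. Respiratory genes have the highest median of these lists (176 FPKM) and receptor tyrosine kinases the lowest (6.11 FPKM).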

How the data were processed

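RNA was sequenced in 6 A673 libraries (esiGFP, esiFLI1 and esiUSP9X, 2 each), of which the 2 esiGFP libraries were used. Total RNA was depleted of ribosomal RNA, made into stranded libraries and read on a NextSeq500, per the labels' protocols. The deposited table gives FPKM per gene symbol, computed by the authors. The submitters' processing notes name TopHat, Cufflinks, Cuffdiff, hg19 and GRCh37, and their versions, the annotation and any strand setting in counting were not given in the sources used. The table's closing line held no gene and was left out, and the number of columns without a sample was 0. No read counts were used, so depth is unknown and no counting interval or detection limit was computed.

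Members had at least 1 FPKM in both libraries. The labels do not state separate cultures, so the spread may be technical. Medians of lists were over members by the mean of the 2 libraries. Agreement was measured on log2(FPKM + 1) with pandas 2.3.3 and numpy 2.4.6 in Python 3.11.15. GENCODE v29 gave gene types, transcript GC and lengths, and RefSeq GRCh38.p14 gave promoters and microRNAs, matched by symbol or unique synonym. These are on another build than the authors', so no position in their data was used. The scripts were checked on simulated data.

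The members and the 50 lists of 1455 genes were chosen with earlier results of these data known. Of each list at least the 4 highest members were named, along with the 25 highest symbols, the 10 largest library ratios in each direction among members of at least 10 FPKM, and the 5 genes nearest the threshold on each side. Some genes that the rule names are not reported here. Families were paired for ratios, and motifs and sequences to show were chosen, after values were seen. Alternatives were other thresholds, scalings, pseudocounts and leaving out either library.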

Additional observations from a re-analysis of the deposited data

How the results depend on the processing

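Between 8090 and 12022 genes met the rule at 5 and 0.5 FPKM in both libraries, within 1.5 times the 11139 reported. The lineage, surface, fusion target, metabolic and signalling lists also kept their number of members within 1.5 times under each alternative, except the lineage lists at 5 FPKM in both, with 89 members instead of 136. For the markers of other cell types, a check chosen after seeing the data, the 17 members became 9 at 2 FPKM and 5 at 5 FPKM in both libraries, and 17 to 19 under the other alternatives. The median level of a theme moves with the threshold because low genes enter or leave. At 0.5 FPKM in both it was 10.3 FPKM for the surface lists. At 2 FPKM in both it was 16.9 FPKM for the lineage lists, 16.9 FPKM for the surface lists and 17.0 FPKM for the signalling lists. At 5 FPKM in both it was 23.4, 22.8, 44.5, 64.2 and 21.7 FPKM for the lineage, surface, fusion target, metabolic and signalling lists. Rescaling each library to a fixed sum, as in TPM, without MIR6723 and other small RNA symbols multiplied levels by 1.93 and 2.02. The threshold of 1 was then applied to the rescaled values, so low genes entered, with 144 lineage members instead of 136. The medians became 24.1, 20.2, 45.6, 110.5 and 28.1 for the themes in the same order, from both the factor and the added members. The order of genes within a library is the same under any such factor. Leaving out 1 library gave lineage medians from 11.2 to 14.5 FPKM. Without small RNA symbols the 10 highest symbols held 6.41% of the FPKM sum, instead of 42.0%. Pearson's r of the libraries was 0.934 to 0.977 under the other filters and pseudocounts, and the share of the highest members with the ETS motif stayed between 11.3% and 11.7%. No paired analysis was possible because the libraries form 1 group and no test was made. Without read counts, the depth behind a low value is unknown, and values near 1 FPKM may change sides of the rule.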

Other observations

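Small RNA symbols (names of microRNA, snoRNA and other short RNA genes) made up 2046 of the listed symbols and 61 of the members, and held 36.3% and 44.3% of the FPKM sum. All 63 symbols that were at 0 in 1 library and above 5 FPKM in the other were of this kind. MIR5047, with 1913 and 1609.8 FPKM, was the microRNA symbol next to MIR6723 and above MIR25 in library 1.

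The difference between the libraries by GC content touched whole gene lists. In the HOX list, with a median transcript GC of 55.5%, the median ratio of library 2 to library 1 was 0.699, and in the list of DNA damage and drug target genes, with 45.2%, it was 1.10. In every list with at least 5 members, no more than 1 member was over 2-fold higher in library 2, while up to 8 (of cholesterol and fatty acid synthesis) were over 2-fold higher in library 1.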
